A study of Mus musculus with 47 samples.

Results

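Raw264.7 macrophage-like cells that lacked their own p65 and carried a p65 with arginine in place of the lysine K122 (K122R) were compared with the same kind of cells carrying wild-type (WT) p65, both after LPS. All 22599 genes of the deposited table were taken, from 2 of the 47 samples of the series, with 1 library for each line. The study as a whole concerns ZMYND8, a chromatin reader, and its control of inflammatory genes in macrophages. This comparison asks which transcripts differ when p65 cannot be acetylated at K122, a lysine that the study examined for its part in the binding of p65 to ZMYND8.

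The line labelled p65 KO + K122R and the line labelled p65 KO + WT both started from Raw264.7 cells in which Rela, the gene of p65, had been targeted with a CRISPR guide, and p65 was then put back. The cloning primers of p65 are named for MSCV, a retroviral vector. The labels give C57BL/6 as the strain and vehicle or LPS as the treatment, and both libraries are LPS libraries. Neither the dose and time of LPS for these lines nor the number of clones behind each line was found in the sources used here. The column taken as WT p65 is headed as wild-type with LPS and does not name the p65 KO background, so the name of that library rests on the sample label, and unmodified Raw264.7 cells cannot be told apart from it by the heading. The p65 KO line after LPS, without an added p65, is deposited in another table that holds the same WT p65 library. Its values are given beside those of K122R, and the shared WT p65 library enters both differences.

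p65, encoded by Rela, is a subunit of NF-κB, which is held in the cytoplasm by inhibitor proteins until receptors such as TLR4 sense LPS and those inhibitors are degraded. In the nucleus p65 binds κB sites in promoters and enhancers and drives genes of cytokines, chemokines, adhesion molecules and its own inhibitors. Its activity is tuned by modifications that include acetylation of lysines, and K122 lies in the DNA-binding Rel homology region. Arginine keeps the positive charge of lysine and cannot be acetylated.

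The mutated codon is shown because it defines the comparison. In mouse Rela (mm10 chr19:5637440-5648131, plus strand) the codon of K122 lies in exon 5 at chr19:5639887-5639889. The first line below gives the reference coding sequence around it (chr19:5639863-5639913), with the codon in capitals. The next lines give the mutagenesis primer of the study and the reference at the same place, with the letters that differ in capitals.
Rela reference (RefSeq, GRCm38.p6): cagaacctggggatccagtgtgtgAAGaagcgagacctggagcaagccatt
K122R forward primer: ggAatccagtgtgtgaGgaagcgG
reference at the primer: ggGatccagtgtgtgaAgaagcgA
Counted from the A of the start codon, the primer differed from the mouse reference at G351A, A365G and A372G. A365G turns the lysine codon AAG into the arginine codon AGG, which is K122R, and the other differences are silent. The primer for the start of the added p65 differed from the mouse reference at T9A, which gives D3E, and at T15C, which is silent. The added p65 therefore need not match the mouse gene in every base. How many reads of the added p65 were assigned to mouse Rela was not tested, and the Rela values below carry that limit.

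The guide that targeted Rela is shown with its PAM, the bases next to a guide that Cas9 requires, in capitals. It matches the plus strand of exon 3 at chr19:5638613-5638632, over codons 33 to 39.
Rela guide and PAM: cgattccgctataaatgcgaGGG

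The K122R library held 16653841 reads and the WT p65 library 15665382. These totals were recovered from the deposited values, in which the authors had scaled the reads of a library by its size factor. A read was worth 1.019 in K122R and 0.981 in WT p65, and 100% of the values were whole numbers of reads within 0.01. With 1 library for each line no difference has a replicate check, and no p-value is given across genes. The limits given for a gene are 95% Clopper-Pearson limits, computed from its reads, and cover counting error only. Of the 22599 genes, 13461 had a mean value of at least 10 in the 2 libraries and were compared as log2 of the value plus 1.

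Rela itself differed between the lines. It had 1601 reads in the WT p65 library and 5850 in the K122R library, a 3.80-fold higher value in K122R, or 1.92 on the log2 scale (95% limits 1.84 to 2.01). In the p65 KO library Rela had 765 reads, a log2 fold change of -1.02 against WT p65, so that transcript was still counted there. The K122R line therefore differed from the WT p65 line in the reads assigned to Rela as well as in the codon. What part of those reads came from the added p65 was not tested. The parts of Rela level and of the codon in the differences below cannot be told apart.

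K122R differed widely from WT p65. At a fold of at least 1.2, the fold in the study's methods, 3553 genes were higher in K122R (26.4% of those compared) and 3844 were lower (28.6%). At 2-fold or more, 631 genes were higher (4.69%) and 653 were lower (4.85%), 9.54% in all. The median log2 fold change was -0.02, with quartiles at -0.32 and 0.29. For p65 KO against WT p65 in its own table, the quartiles were at -0.20 and 0.19, and 304 genes were higher (2.26%) and 286 lower (2.13%) by 2-fold or more, 4.39% of the 13451 compared. An edgeR exact test on the recovered reads, run as if replicates varied by 0.2 (coefficient of variation), gave 196 genes above WT p65 and 110 below it, and an exact binomial test on the reads together with 1.2-fold called 5223 genes. Both tests compare these 2 libraries and not the conditions.

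**Figure D1:**
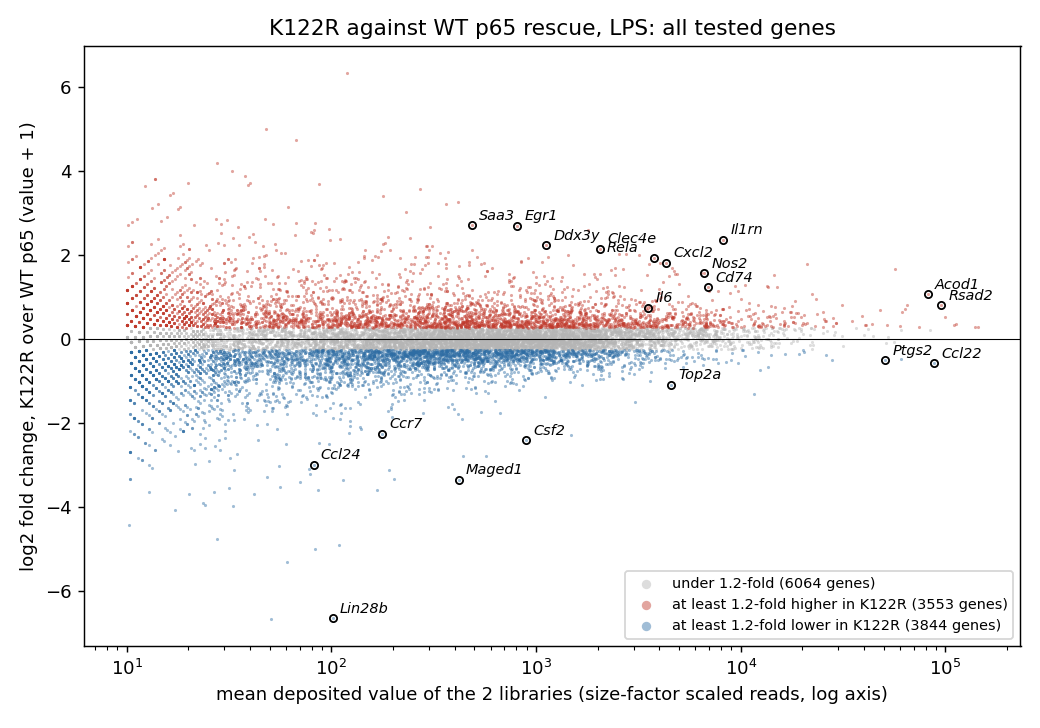
Each point is a gene whose mean deposited value was 10 or more. The x axis is the mean of the 2 libraries in size-factor scaled reads, on a log axis, and the y axis is the log2 fold change of K122R over WT p65. The 3553 genes at least 1.2-fold higher (red) and the 3844 at least 1.2-fold lower (blue) lie on both sides of 0 across the whole range of levels.

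The markers named for this comparison moved apart. Nos2, the inducible nitric oxide synthase (chr11:78920787-78960232), had 3414 reads with WT p65 and 9701 with K122R, which is 1.56 on the log2 scale (95% limits 1.51 to 1.62). Ccl22, a chemokine that attracts regulatory and helper T cells (chr8:94745684-94751388), had 107334 reads with WT p65 and 68617 with K122R, a log2 fold change of -0.59 (-0.60 to -0.58). In p65 KO cells Nos2 had 3855 reads and Ccl22 108269, log2 fold changes of 0.22 and 0.06. K122R thus held the highest Nos2 and the lowest Ccl22 of the 3 libraries in reads.

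The 10 inflammatory genes that the study names split in direction: 4 were called higher, 3 lower and 3 were under 1.2-fold. Of all compared genes 26.4% were higher and 28.6% lower, so the lower share of these 10 was near that of all. The study chose these 10 genes in this series, so their count is no independent evidence of a direction. Il6, a pyrogenic cytokine, had 2694 reads with WT p65, 4318 with K122R and 1213 with p65 KO, log2 fold changes of 0.74 and -1.10 against WT p65. Il27, which encodes a subunit of interleukin 27, had 2728, 4212 and 1911 reads, log2 fold changes of 0.68 and -0.46. For these genes K122R was above WT p65 and p65 KO below it. Ccl5, a T cell chemokine, had 38936 reads with WT p65, 47984 with K122R and 47770 with p65 KO, so that both lines were above WT p65 (log2 fold changes of 0.36 and 0.34), although library totals took K122R under 1.2-fold. Ccl2 and Ccl7, neighbouring monocyte chemokine genes on chromosome 11, showed the opposite order. Ccl2 had 1855 reads with WT p65, 1324 with K122R and 3193 with p65 KO (log2 fold changes of -0.43 and 0.83). Ccl7 had 266, 166 and 491 reads (log2 fold changes of -0.62 and 0.93). Il1a, Il1b and Cxcl10 were under 1.2-fold in K122R, with log2 fold changes of -0.10, -0.09 and 0.26, and the first pair crossed 0 when centred on their neighbours (0.04 and 0.05). Il1a had 53852 reads with WT p65, 48334 with K122R and 31117 with p65 KO.

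**Figure D2:**
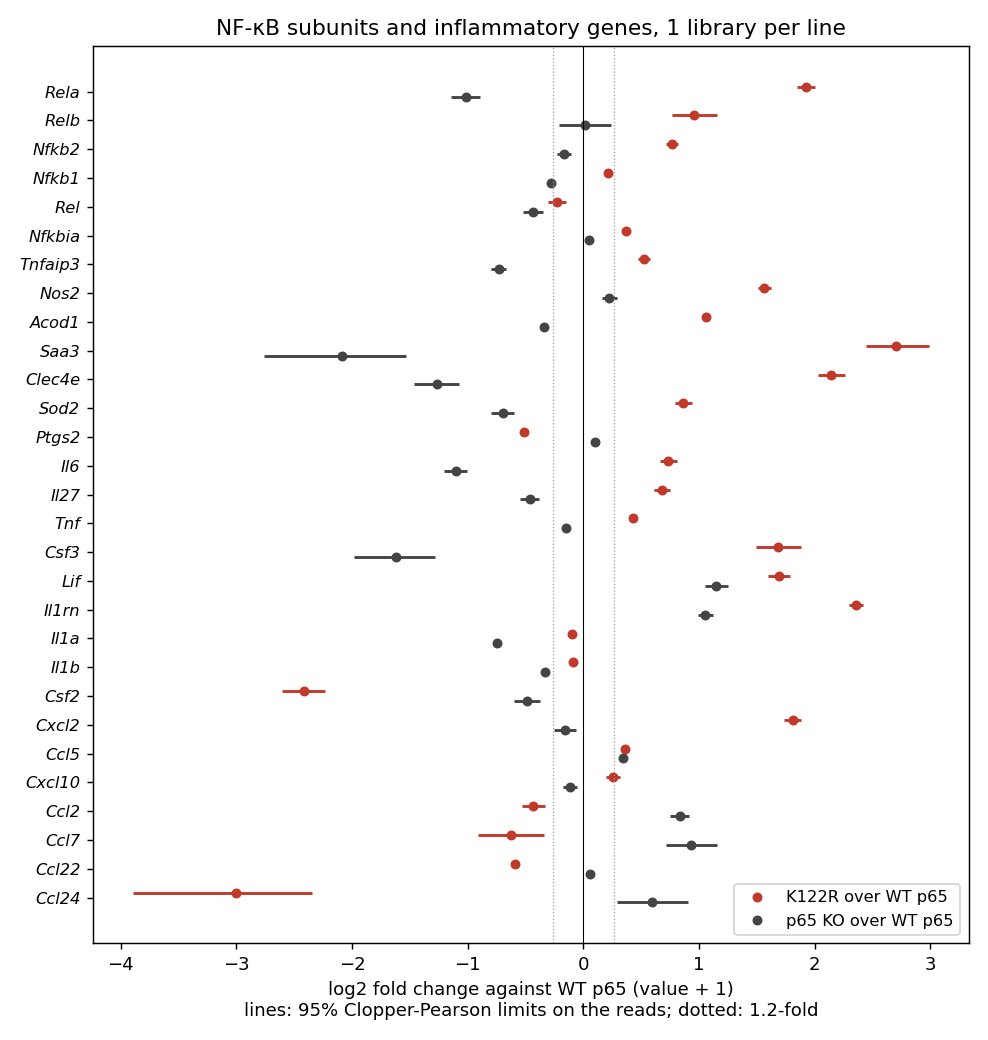
Log2 fold changes of 29 NF-κB and inflammatory genes against the WT p65 library, for K122R (red) and p65 KO (grey), with 95% Clopper-Pearson limits on the reads as lines and 1.2-fold as dotted lines. Saa3, Csf3, Clec4e and Il6 lie to the right in K122R and to the left in p65 KO, while Ccl2, Ccl7 and Ccl24 lie to the left in K122R and to the right in p65 KO. Both series share the WT p65 library.

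Among the NF-κB subunits, 3 of 5 were called higher and none lower, where 26.4% and 28.6% of all compared genes were, with a median log2 fold change of 0.77. Nfkb2, the precursor of p52, had 4593 reads with WT p65 and 7526 with K122R (log2 fold change 0.77). Relb, its partner in the non-canonical pathway, had 338 and 632 reads (0.96). Nfkb1, the precursor of p50, had 15353 and 17096 reads (0.21), and Rel, which encodes c-Rel, had 2780 and 2284 (-0.23), both under the 1.2-fold threshold. Under library totals instead of size factors, all log2 fold changes were lower by 0.14 and Rel passed 1.2-fold as lower in K122R. With library totals 2424 and 5454 of all 13461 compared genes were higher and lower by 1.2-fold, and counts of list members under that scaling are read against these.

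Of 18 inhibitors and feedback regulators of NF-κB, 7 were higher (38.9%), 2 lower (11.1%) and 9 under 1.2-fold, against 26.4% and 28.6% of all compared genes. Nfkbia, which encodes the inhibitor IκBα, had 14649 reads with WT p65 and 18248 with K122R (log2 fold change 0.37), but was under 1.2-fold under library totals and when centred on its neighbours (0.16). Tnfaip3, which encodes the ubiquitin-editing enzyme A20, had 4865 and 6725 reads (0.52), against 2832 in p65 KO (-0.73). Zfp36 and Zc3h12a, which promote decay of inflammatory mRNAs, had log2 fold changes of 0.54 and 0.64. Nfkbiz, an atypical nuclear inhibitor protein, had 4677 and 6751 reads (0.58). The 2 lower members were Tnip3 and Cyld (-0.30 and -0.31), restraints of NF-κB signalling, and both were under 1.2-fold when centred on their neighbours (-0.19 and -0.25). Of 11 anti-apoptotic NF-κB targets, 9 were under 1.2-fold, with Xiap higher (0.29, under 1.2-fold with library totals) and Birc2 lower (-0.29, or -0.18 centred on its neighbours). Of 25 genes of the Toll-like receptor pathway, 16 were under 1.2-fold, 7 higher and 2 lower, the higher share being near the 26.4% of all compared genes and the lower below their 28.6%. In that list library totals gave 3 higher and 4 lower, where 2424 and 5454 of all 13461 compared genes were. Tlr4, the LPS receptor, had 175 reads with WT p65 and 424 with K122R (log2 fold change 1.33), and Cd14, its co-receptor, had 7987 and 13890 (0.85). Ly96, which encodes the MD-2 subunit of the LPS receptor, was lower, with 217 and 158 reads (-0.40), as was Tlr8, an endosomal sensor of RNA, with 69 and 28 (-1.22). Tlr8 lies at the distal end of the X chromosome among neighbours with a median of -0.63, and centred on it its value was -0.59. The neighbours of Ly96 on chromosome 1 had a median of -0.37.

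The cytokine list held 23 compared genes, of which 16 were higher in K122R (69.6%), 4 lower (17.4%) and 3 under 1.2-fold (median log2 fold change 0.49), where 26.4% and 28.6% of all compared genes were higher and lower. Il1rn, the antagonist of the interleukin 1 receptor, had the highest value of the list, with 2741 reads with WT p65, 13482 with K122R and 5508 with p65 KO, log2 fold changes of 2.35 and 1.06. Csf3, which encodes the granulocyte growth factor G-CSF, had 294, 909 and 92 reads in the same order (1.68 and -1.62). Lif, a cytokine of the interleukin 6 family, had 1166, 3628 and 2502 reads (1.69 and 1.15). Tnfsf15, a TNF family cytokine, had 146, 590 and 568 reads, with a log2 fold change of 2.06 in K122R. Tnf itself had 22549 reads with WT p65 and 29261 with K122R (0.43), in a stretch of chromosome 17 with a median of 0.25, and centred on it was at 0.18, under 1.2-fold. Of these genes, Csf3 was below WT p65 in p65 KO and above it in K122R, whereas Il1rn, Lif and Tnfsf15 were above it in both lines.

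The 4 lower cytokines were Csf2, Il12b, Ifnb1 and Csf1. Csf2, which encodes GM-CSF, had 1532 reads with WT p65, 276 with K122R and 1057 with p65 KO, log2 fold changes of -2.41 (95% limits -2.61 to -2.23) and -0.49. Il12b, which encodes the p40 subunit of interleukins 12 and 23, had 52 reads with WT p65 and 9 with K122R (log2 fold change -2.35, limits -3.68 to -1.44). Ifnb1, the type I interferon beta, had 55 and 28 reads (-0.90), and Csf1, the macrophage growth factor, had 5456 and 3718 (-0.50). Il12b and Ifnb1 rest on few reads.

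Of 17 chemokines 8 were higher (47.1%) and 6 lower (35.3%), against 26.4% and 28.6% of all compared genes, and library totals left 4 higher and 6 lower (35.3%), where 40.5% of all compared genes were lower. Cxcl2, a neutrophil attractant, had 1947 reads with WT p65, 6575 with K122R and 1689 with p65 KO, log2 fold changes of 1.81 and -0.16. Ccl9 had 48849, 77305 and 79123 reads in the same order, so that its log2 fold changes of 0.72 and 0.74 were alike in the 2 lines. Cxcl14 had 284 and 479 reads (0.81). Ccl24, an eosinophil attractant also known from alternatively activated macrophages, had the lowest value of the list, with 149 reads with WT p65, 17 with K122R and 218 with p65 KO (log2 fold changes of -3.01 and 0.59). Ccl3, a further attractant of monocytes and T cells, had 101233 and 123095 reads (0.34), under 1.2-fold with library totals.

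Of 20 inflammatory enzymes and effectors, 11 were higher and 4 lower, against 26.4% and 28.6% of all compared genes. Acod1, which makes itaconate in activated macrophages, had 54120 reads with WT p65, 108712 with K122R and 41235 with p65 KO (log2 fold changes of 1.06 and -0.34). Its neighbours on chromosome 14 had a median of 0.51. Saa3, an acute-phase protein, had 131, 824 and 29 reads (2.70 and -2.09). Gch1, which supplies the tetrahydrobiopterin that nitric oxide synthase needs, had 1038 and 2368 reads (1.24), and Ass1, which regenerates arginine from citrulline, had 642 and 1592 (1.36). The lower members were Arg1 (17 and 7 reads), Mmp13, Mmp14 and Ptgs2. Ptgs2, the inducible prostaglandin synthase, was lower, with 60996 reads with WT p65 and 41237 with K122R (-0.51). It lies on chromosome 1 in a stretch whose compared genes had a median of -0.44, and centred on that median its log2 fold change was -0.07.

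Of 17 surface molecules of activated macrophages, 10 were higher (58.8%) and 5 lower (29.4%), the lower share being near the 28.6% of all compared genes and the higher above their 26.4%. Clec4e, the receptor Mincle for mycobacterial and fungal glycolipids, had 773 reads with WT p65, 3290 with K122R and 310 with p65 KO (log2 fold changes of 2.14 and -1.27). Olr1, a scavenger receptor for oxidized lipoprotein, had 20 and 111 reads (2.47), and Cd86, a costimulatory ligand, had 237 and 422 (0.88). The other costimulatory ligand gene, Cd80, was lower, with 776 and 417 reads (-0.84), and lies among neighbours with a median of -0.30. Ccr7, the receptor that guides cells to lymph nodes, had 298 reads with WT p65 and 59 with K122R (-2.26), against 220 in p65 KO. Cd40 and Icam1 were lower as well (-0.42 and -0.48), the first among neighbours with a median of -0.41.

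Genes of the interferon response leaned upward. Of 36 members, 22 were higher (61.1%), 1 was lower (2.78%) and 13 were under 1.2-fold, against 26.4% and 28.6% of all compared genes, with a median log2 fold change of 0.31, and 13 remained higher under library totals. Rsad2, which encodes the antiviral enzyme viperin, had 71416 reads with WT p65, 118927 with K122R and 48718 with p65 KO (log2 fold changes of 0.79 and -0.50). Gbp2, Isg20 and Ifit2, further antiviral effectors, had log2 fold changes of 0.99, 0.94 and 0.90. Rsad2 and Cmpk2 (0.69) lie side by side on chromosome 12 among neighbours with a median of 0.31.

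Most of the listed antigen presentation genes were higher in K122R. In the MHC class I list 11 of 18 were higher (61.1%), 7 under 1.2-fold and none lower (median 0.36), against 26.4% and 28.6% of all compared genes, the higher including H2-D1, a heavy chain with 11137 reads with WT p65 and 18165 with K122R (log2 fold change 0.76), B2m, the light chain (0.58), and Psmb10, a subunit of the immunoproteasome (0.80). Class I heavy chains have near-identical copies, so reads could be divided between them. In the MHC class II list 5 of 6 compared genes were higher (83.3%, median 1.41). Cd74, the invariant chain, had 4214 reads with WT p65, 9520 with K122R and 7222 with p65 KO (log2 fold changes of 1.23 and 0.83). H2-Aa, H2-Ab1 and H2-Eb1, the class II chains, had 80, 25 and 60 reads with WT p65 and 234, 77 and 206 with K122R (log2 fold changes of 1.59, 1.64 and 1.82). In p65 KO they had 204, 58 and 146 reads (1.39, 1.23 and 1.32), so that both lines were above WT p65.

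Of 23 early response factors, 16 were higher (69.6%) and 4 lower (17.4%), against 26.4% and 28.6% of all compared genes. In p65 KO 12 of 23 compared were higher (52.2%) and none lower, against 19.3% and 19.4% of all genes there. Egr1, a zinc finger factor induced within minutes of stimulation, had 220 reads with WT p65 and 1373 with K122R (log2 fold change 2.69), and 475 in p65 KO (1.16). Klf6, Dusp4, Atf3 and Dusp1 had log2 fold changes of 1.69, 1.59, 1.54 and 1.53 in K122R. Atf3 and the phosphatases of the Dusp family restrain inflammatory signalling. The lower members were Fos (-0.46), Myc (-0.45), Dusp2 (-0.38) and Ier5 (-0.27), of which Dusp2 and Ier5 were under 1.2-fold when centred on their neighbours. Of 13 STAT and SOCS genes, 4 were higher, among them Cish (0.94), Jak2 (0.51) and Socs3 (0.50), and 2 were lower, shares of 30.8% and 15.4% where 26.4% and 28.6% of all compared genes were higher and lower. Library totals gave 3 and 4, where 2424 and 5454 of all 13461 compared genes were.

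A list from other libraries leaned upward. In WT bone marrow-derived macrophages, 549 genes by symbol were at least 4-fold higher in the library labelled M1, which is LPS in the study's methods, than in the untreated library labelled M0, and 399 of them were compared here. Of these, 203 (50.9%) were higher in K122R and 61 (15.3%) lower, with a median log2 fold change of 0.27, where 26.4% and 28.6% of all compared genes were higher and lower. With library totals the counts were 161 and 89 of 399, where 2424 and 5454 of all 13461 compared genes were higher and lower. In p65 KO against WT p65, 19.6% of 398 were higher and 30.7% lower (median -0.06), where 19.3% and 19.4% of all genes were. Of the 1012 compared genes that were at least 4-fold lower after LPS in those macrophages, a list added after the first was seen, 151 (14.9%) were higher in K122R and 434 (42.9%) lower (median -0.21).

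**Figure D3:**
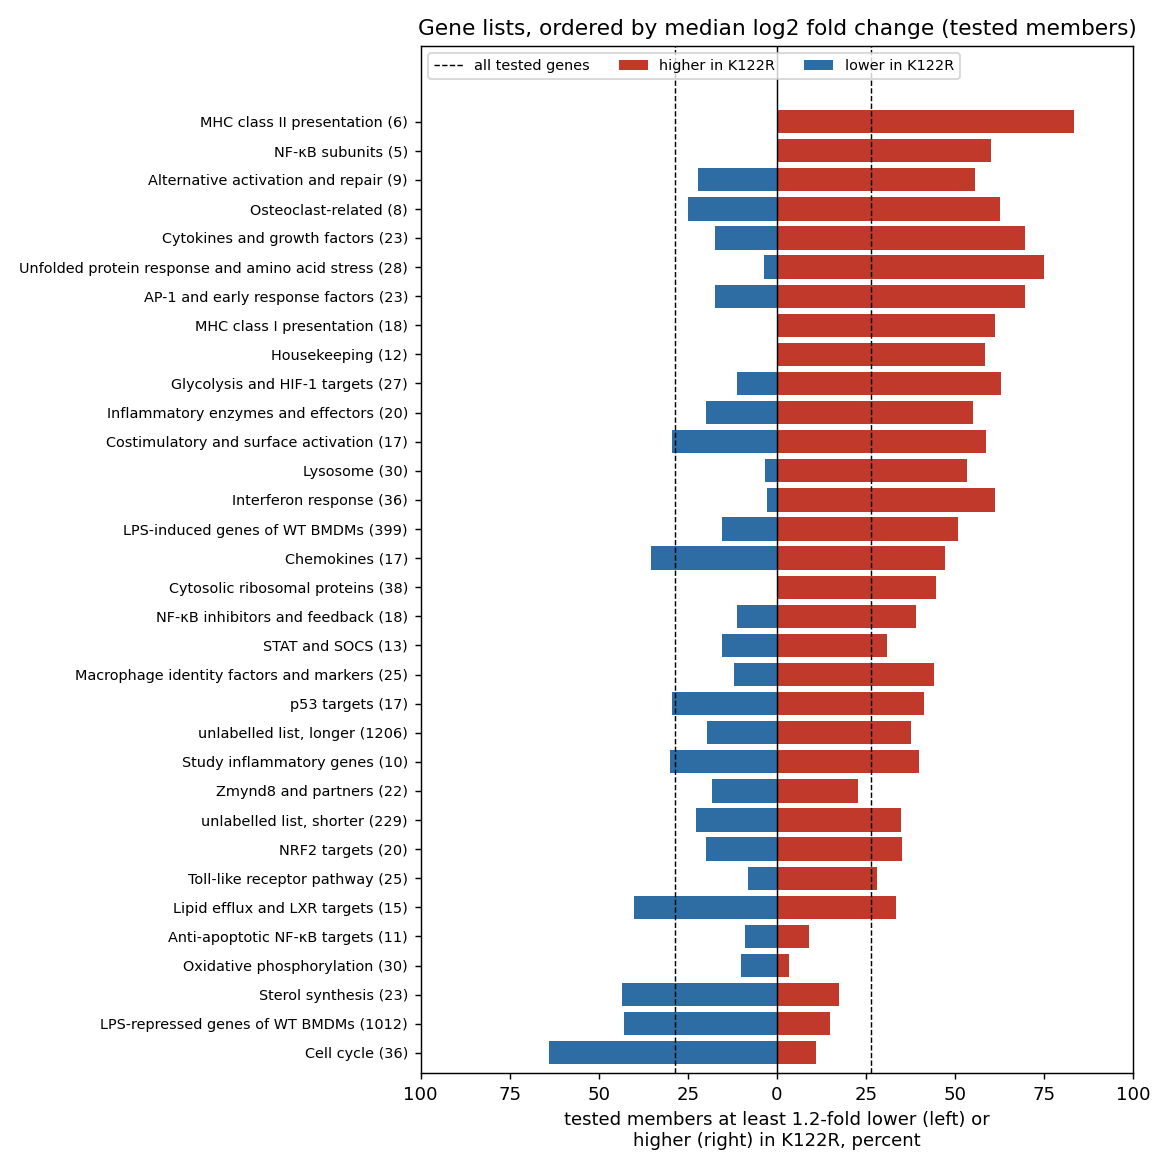
Share of the compared members of each gene list with at least 5 of them, genes of line identity left out, that were at least 1.2-fold higher (red, right) or lower (blue, left) in K122R, ordered by median log2 fold change, with the number of compared members in parentheses. Dashed lines mark all compared genes, 26.4% higher and 28.6% lower. MHC class II (5 of 6 higher) stands at the top and the cell cycle list (23 of 36 lower) at the bottom.

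The cell cycle list was the most reduced. Of 36 genes, 23 were lower in K122R (63.9%) and 4 higher (11.1%), where 28.6% and 26.4% of all compared genes were. The median log2 fold change was -0.59, and 25 were lower when values were centred on neighbouring genes. In p65 KO, which shares the WT p65 library, 20 of the 36 were lower (55.6%) and 3 higher (8.33%). Of all genes compared in p65 KO, 19.4% were lower and 19.3% higher. Top2a, the topoisomerase of dividing cells, had 6318 reads with WT p65, 2853 with K122R and 4316 with p65 KO (log2 fold changes of -1.09 and -0.50). Cdc6, a replication licensing factor, had 204, 68 and 89 reads (-1.52 and -1.14). Aurka, a mitotic kinase, had 1181 and 486 reads (-1.22), in a stretch of chromosome 2 with a median of -0.59. Cdkn1a, the cell cycle inhibitor p21, was in the opposite direction, with 2379 reads with WT p65 and 5846 with K122R (1.35). Mki67, a proliferation marker, had 4274 and 3467 reads (-0.25) and stayed under 1.2-fold, although library totals moved it past that threshold. Sterol synthesis genes leaned lower too, with 10 of 23 lower (43.5%) and 4 higher (17.4%, median -0.20), and 13 lower (56.5%) and 0 higher with library totals, where 40.5% of all compared genes were lower. Idi1, Hsd17b7, Pmvk and Stard4 had log2 fold changes of -0.89, -0.73, -0.73 and -0.72.

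Among the metabolic and stress lists, those of glycolysis, the unfolded protein response and lysosomes each had more members higher than the 26.4% of all compared genes and fewer lower than their 28.6%. Of 27 glycolysis and HIF-1 genes, 17 were higher and 3 lower (median 0.35). In p65 KO 15 of 27 compared were higher (55.6%) and 1 lower (3.70%), against 19.3% and 19.4% of all genes there. Hk3 and Hk1, hexokinases, had log2 fold changes of 1.38 and 1.30, Ndrg1, a hypoxia target, had 372 and 1289 reads (1.85), and Pfkfb3, an activator of glycolysis, was lower, with 4563 reads with WT p65 and 1548 with K122R (-1.50). Of 28 genes of the unfolded protein and amino acid responses, 21 were higher and 1 lower (median 0.47), among them Psat1 of serine synthesis (1.08) and Trib3 (0.88), and the lower gene was Herpud1 (-0.81). Of 30 lysosome genes, 16 were higher and 1 lower (median 0.31, and 11 and 3 with library totals). The lower gene, Ctsa, lies on distal chromosome 2 and was at -0.30, or 0.21 when centred on its neighbours. Among the higher was Sqstm1, the autophagy adaptor p62, at 1.00. Fth1, the ferritin heavy chain, had 14684 and 29724 reads (1.07), and Hmox1, heme oxygenase 1, had 383 and 1071 (1.54). Of 30 oxidative phosphorylation genes, 26 were under 1.2-fold, 1 was higher and 3 lower, and library totals gave 0 higher and 12 lower, where 5454 of all 13461 compared genes (40.5%) were lower.

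Genes often used as references were not level. Of 12 housekeeping genes, 7 were higher in K122R (58.3%) and none lower (median 0.35), against 26.4% and 28.6% of all compared genes. Among them Actb had 84144 and 114979 reads (log2 fold change 0.51). Under library totals 6 remained higher and 1 was lower. Of 38 cytosolic ribosomal protein genes, 17 were higher (44.7%) and none lower, against 26.4% and 28.6% of all compared genes. For that list library totals gave 4 higher and 2 lower, where 2424 and 5454 of all 13461 compared genes were.

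Genes around ZMYND8 itself were compared as well. Zmynd8 had 1826 reads with WT p65, 1070 with K122R and 1624 with p65 KO (log2 fold changes of -0.72 and -0.12). It lies on distal chromosome 2 among neighbours with a median of -0.41, and centred on that median its value was -0.31. Of 22 genes of ZMYND8 and its partners, 5 were higher (22.7%) and 4 lower (18.2%), against 26.4% and 28.6% of all compared genes. Library totals gave 1 and 4, where 2424 and 5454 of all 13461 compared genes were higher and lower. Rbbp7 and Kdm5c, on the X chromosome among neighbours with a median of -0.63, had log2 fold changes of -0.95 and -0.50, and centred on that median Kdm5c was at 0.13, in the opposite direction.

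Macrophage markers were present in both lines. Spi1, the factor PU.1, had 7022 and 6398 reads, Csf1r had 3034 and 2616, Cd68 had 4771 and 5162, and Lyz2 had 4373 and 5241. Adgre1, which encodes F4/80, was lower (1074 and 845 reads, log2 fold change -0.29), and Cx3cr1 was higher (166 and 549, 1.77). Of 25 compared macrophage genes, 11 were higher and 3 lower (9 and 6 with library totals), against 26.4% and 28.6% of all compared genes (2424 and 5454 genes with library totals), with Mpeg1, a pore-forming protein of macrophages, among the higher (4924 and 10458 reads, 1.14). None of 10 neutrophil markers reached a mean value of 10, and those listed summed to 7 and 9 reads. The listed B cell markers summed to 136 and 154 reads, of which Pax5 gave 124 and 119. Cd79b, a subunit of the B cell receptor, was the other B cell marker compared and was higher (5 and 24 reads, 2.11), while Cd22 had 1 and 7 reads and was too low to compare. The T and NK cell markers summed to 105 and 133 reads, of which Lck gave 102 and 132. Dendritic cell markers summed to 323 and 457 reads, and of the 3 compared 1 was higher, 1 lower and 1 under 1.2-fold (median -0.02). These were Xcr1, a chemokine receptor (146 and 319 reads, 1.18), Siglech (73 and 38, -0.87) and Zbtb46 (97 and 92, -0.02). Fibroblast and epithelial markers summed to 142 and 145 reads. Cd3e, Flt3 and Epcam were not among the listed genes. The part of such cells in the differences was not tested. Xist had 2 reads with WT p65 and 0 with K122R.

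The largest differences were mostly in genes outside these lists. Lin28b, an RNA-binding inhibitor of let-7 maturation, had 206 reads with WT p65, 1 with K122R and 2 with p65 KO (log2 fold change of K122R -6.65, limits -12.94 to -5.14). The pseudogene Gm6723 had 103 reads with WT p65 and 0 in both of the other lines, at least 33.0-fold lower in K122R when 3 reads are taken as the floor. Has1, a hyaluronan synthase, had 162, 12 and 12 reads (log2 fold changes of -3.60 and -3.60). These 3 genes were close to absent in K122R and p65 KO alike.

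Other genes of the lower end differed in K122R and less in p65 KO. Tnni1, a slow muscle troponin, had 166 reads with WT p65, 4 with K122R and 160 with p65 KO, and Dnah14, an axonemal dynein, had 216, 6 and 198. Maged1, a member of the MAGE family, had 778, 72 and 566 reads (log2 fold changes of -3.36 and -0.41). Elovl4, a fatty acid elongase, lay between, with 2 reads with K122R and 41 with p65 KO and log2 fold changes of -5.31 and -1.50. St5, Btla, Trpm2, Iqsec3 and Greb1 completed the 12 lowest, with log2 fold changes from -3.61 to -3.33.

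At the upper end, 3 of the 12 highest were long noncoding RNAs. Gm35908 had 2 reads with WT p65, 231 with K122R and 0 with p65 KO (log2 fold change of K122R 6.32, limits 5.04 to 9.96), and Gm40812 had 51, 404 and 1 (3.02 and -4.66). LOC105243655 had 4, 128 and 19 reads (4.74 and 2.04). Most protein-coding genes of this end were above WT p65 in p65 KO too. Bcl6b, a transcriptional repressor, had 12, 159 and 59 reads (3.67 and 2.25), Spink5, a protease inhibitor, had 42, 492 and 275 (3.57 and 2.73), and Nrp1, a receptor for semaphorins and VEGF, had 31, 321 and 131 (3.39 and 2.09). Alox5, the enzyme that starts leukotriene synthesis, had 17, 116 and 31 reads (2.75 and 0.88). Mcoln2, Psd4, Nckap1, Serpinb1c and Ndrg4 had log2 fold changes from 2.74 to 3.25 in K122R.

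**Figure D4:**
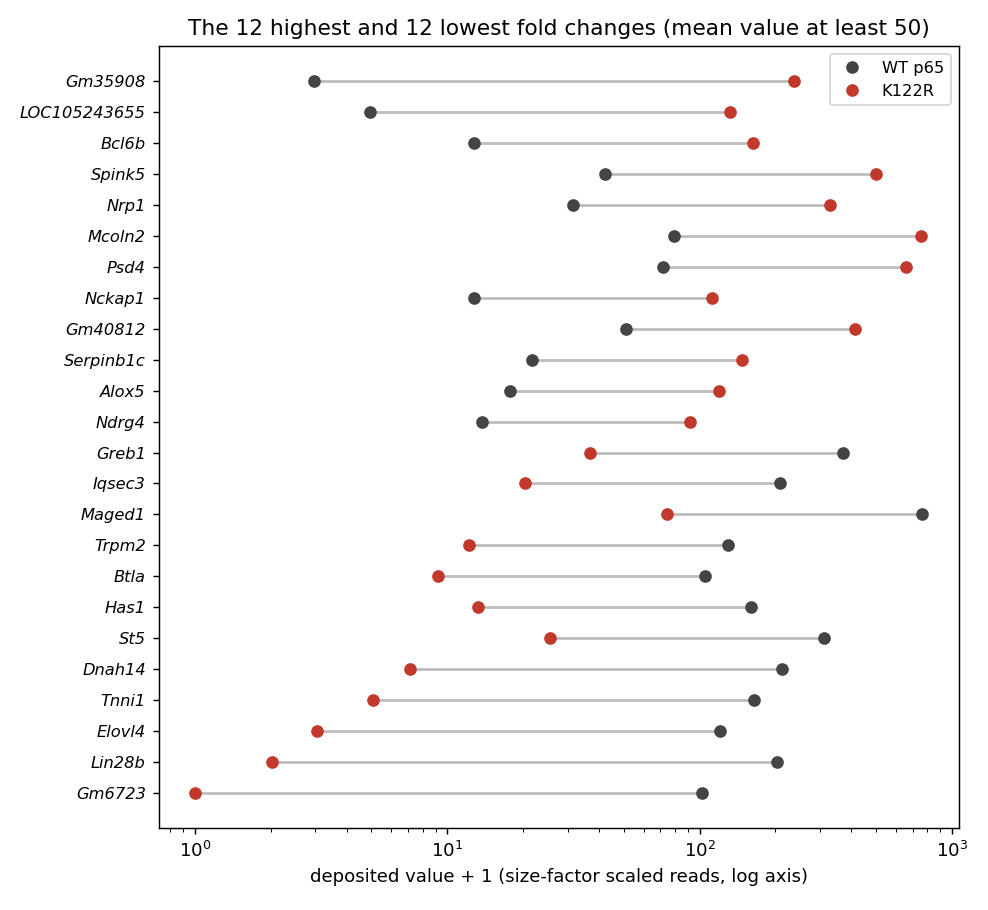
Deposited values plus 1, in size-factor scaled reads on a log axis, of the 12 genes with the highest and the 12 with the lowest log2 fold change (mean value of 50 or more), with WT p65 in grey and K122R in red. Gm6723, with 0 reads in K122R, sits at 1, and Lin28b just above it.

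Neighbouring genes on several chromosomes were shifted together. The compared genes were divided into 325 windows of about 40 neighbours on chromosomes 1 to 19 and X. In K122R against WT p65, 12 windows had a median log2 fold change at or above 1.2-fold and 26 at or below it, with window medians from -0.63 to 0.75. In p65 KO against WT p65, 0 windows passed 1.2-fold, with medians from -0.23 to 0.25. The low windows lay along chromosome 1 (chromosome median -0.27), on distal chromosome 2 (4 adjacent windows from -0.59 to -0.41), on distal chromosome 11, in single windows of mid chromosome 2 (-0.29), chromosome 16 (-0.30) and chromosome 18 (-0.35), and at the distal end of the X chromosome (-0.63, with 57 of 74 genes lower). The high windows lay on distal chromosome 14 (0.75 and 0.51, with 35 of 40 and 51 of 71 genes called higher), along chromosome 12 (chromosome median 0.23), on chromosome 19 (0.21), where Rela lies, and once on chromosome 11 (0.30, the window of Bcl6b). DNA copy number was not measured in these libraries, and its part in these shifts was not tested.

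On the Y chromosome the differences were larger. Ddx3y, a helicase gene, had 400 reads with WT p65, 1810 with K122R and 677 with p65 KO (log2 fold changes of 2.23 and 0.81). Kdm5d, Eif2s3y and Uty had log2 fold changes of 2.22, 1.79 and 1.77 in K122R and 1.04, 0.51 and 0.50 in p65 KO. All 4 of these genes were higher in K122R than in either of the other lines. The windows past 1.2-fold held 1601 genes, of which 398 were called higher and 754 lower. Outside them, 3155 genes were higher and 3090 lower, 52.7% of the 11860 compared there. With each gene centred on the median of its window, 3422 were higher and 3409 lower.

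**Figure D5:**
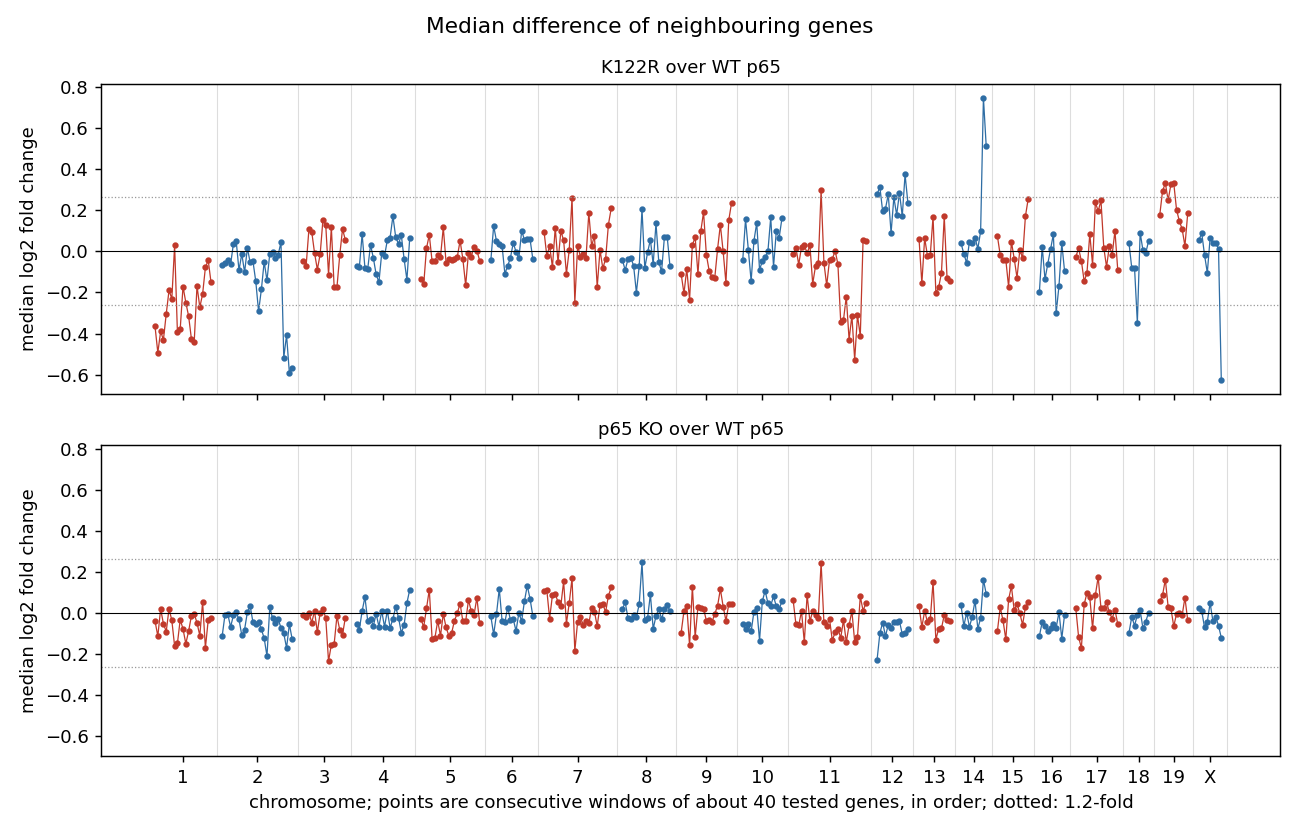
Median log2 fold change of consecutive windows of about 40 compared genes along each chromosome, for K122R over WT p65 (top) and p65 KO over WT p65 (bottom), with 1.2-fold as dotted lines and colours that alternate by chromosome. In K122R stretches of chromosomes 1, 2, 11, 12, 14, 19 and X and single windows of 16 and 18 leave the dotted band, down to -0.63 and up to 0.75, and in p65 KO no window does.

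Promoters were searched for the κB consensus motif, on both strands, in the 250 bases before the start sites given by RefSeq (GRCm38.p6). Of 9213 compared genes with a promoter sequence, 493 held it (5.35%). It was held by 153 of 2321 genes higher in K122R (6.59%) and by 108 of 2543 lower genes (4.25%), and at 2-fold or more by 28 of 376 (7.45%) and 23 of 398 (5.78%). Among the LPS-induced genes of bone marrow-derived macrophages, 31 of 299 held it (10.4%). Of 22 genes described above whose promoters were looked up, 15 had a promoter sequence. Of these, 6 held the motif and 9 did not, namely Ccl22, Il1a, Il1b, Csf2, Saa3, Clec4e, Acod1, Il1rn and Tnf. Sites of 5 genes that held it are shown to set their letters beside their values, 30 bases each on the strand of the gene, with the motif in capitals.
Il6, chr5:30013060-30013089: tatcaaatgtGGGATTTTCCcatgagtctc
Cxcl2, chr5:90903792-90903821: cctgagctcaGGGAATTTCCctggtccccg
Cxcl10, chr5:92348973-92349002: cggtttacagGGGACTTCCCtcgggttgcg
Nfkbia, chr12:55492657-55492686: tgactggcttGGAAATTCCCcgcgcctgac
Nfkb2, chr19:46305695-46305724: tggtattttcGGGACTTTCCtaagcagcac
Tnfaip3 was the other gene with the motif, and Cxcl2, Cxcl10 and Nfkb2 held further matches that are not shown. The 5 genes, chosen after their values were seen, had log2 fold changes in K122R of 0.74, 1.81, 0.26, 0.37 and 0.77 in the order shown. The 9 without it ranged from -2.41 to 2.70. No promoter sequence was at hand for Nos2, Csf3, Relb, Il27 and Ccl5, which were higher in K122R, or for Ccl2 and Ccl7, which were lower. Because the genes were selected, no tie between motif and direction can be read from these values. A match is a description of letters and not of binding.

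The D/E-A mutant of ZMYND8, in which acidic residues are replaced by alanine, was compared with WT Zmynd8 in Zmynd8 KO Raw264.7 cells in another table, with no library in common. The labels of those 2 libraries do not say whether LPS was given, whereas the study's text places them after LPS, so their treatment may differ from that of the p65 lines. Of the genes compared there, 36.7% were higher in D/E-A by 1.2-fold and 35.9% lower (72.6% in all). Those 2 libraries held Xist values of 8272 and 8252, against 2, 0 and 3 reads in the WT p65, K122R and p65 KO libraries, so the Zmynd8 and p65 lines stood apart. Nos2 was higher and Ccl22 lower in both mutants, with log2 fold changes of 2.48 and -0.995 in D/E-A. Il6 and Il27 were at 0.24 and 0.28, and Ccl2 was at 1.18, against -0.43 in K122R. Ccl5 and Ccl7 also went opposite ways, at -0.30 and 0.42 in D/E-A against 0.36 and -0.62 in K122R. Of 11167 genes compared in both, 1212 were higher in both, which is 41.5% of the K122R list and 28.0% of the D/E-A list, where 38.7% of all were higher in D/E-A. Another 959 were higher in K122R and lower in D/E-A, 32.8% of the K122R list. A further 1052 were lower in both, 37.9% of the K122R list and 28.8% of the D/E-A list, where 32.7% of all were lower in D/E-A, and 893 were lower in K122R and higher in D/E-A, 32.1% of the K122R list. These shares are given as a description, with no test.

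Of the columns of gene names without a heading beside the deposited values, the longest named 1529 genes and a shorter list named 285. Of the longest, 1206 were compared, with 452 (37.5%) higher in K122R and 235 (19.5%) lower (median 0.11). Of the shorter list, 229 were compared, with 80 (34.9%) higher and 52 (22.7%) lower (median 0.06). Of all compared genes 26.4% were higher and 28.6% lower. Library totals, which lower every value alike, gave 314 higher and 352 lower (29.2%) in the longest list and 55 and 73 (31.9%) in the shorter. More members were then lower than higher, where 2424 of all 13461 compared genes were higher and 5454 (40.5%) lower. In both lists the higher share stayed above that of all compared genes, and the lower share stayed below it.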

How the data were processed

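RNA-seq values of 2 Raw264.7 libraries were used, with 1 library per group. The submitters' processing notes name CASAVA 1.4 and Bowtie 0.12.2 with the builds mm8 and mm10, and the study's methods name TopHat and mm10. The authors deposited a signal per gene (reads scaled by a size factor), beside log2 fold changes and p-values of their own comparison, which were left out. For the pooled macrophage libraries behind the LPS lists the authors deposited each estimated count per gene without scaling. These were rounded (26209321 and 24902775 in all) and set on CPM plus 1, with a list at 4-fold and at least 50 counts in the higher library. Names turned into calendar dates (20) were restored by position from the other p65 file. Further columns with values of single samples but no matching label (2) were left out, as were other unlabelled columns of gene names. The tables were normalized separately.

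Reads were recovered by dividing values by the value of 1 read. Fold changes were taken on log2 of the value plus 1, which understates changes of low genes, for genes whose mean value reached 10. The p65 tables hold scaled values, so the rule planned for values rather than counts was applied. Named genes were Rela, Nos2, Ccl22, the inflammatory genes of the study, the 12 highest and 12 lowest fold changes at a mean value of at least 50, and per list the called members that differed most and the most abundant, while others were chosen after their values were seen, as were the genes whose motifs are printed. The members and the 35 lists were chosen with earlier results of these data known. Python 3.11.15 and edgeR 4.0.16 were used, and the recovery of reads, the fold rule and the limits were tested on simulated data. The binomial test was not checked in this way. Whether counting used strand is not stated, so antisense pairs cannot be told apart. Values of a few members of the lists are not reported here.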

Additional observations from a re-analysis of the deposited data

How the results depend on the processing

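No paired analysis was possible because each group has 1 library, and for the same reason no replicate could be left out. Library totals in place of size factors lowered every log2 fold change by 0.14, moved the median of all genes to -0.16 and gave 2424 higher and 5454 lower genes (30.8% higher, against 48.0%), while the median ratio gave 3749 and 3650 and TMM 3741 and 3659. Counts of called genes moved by over 1.5 times under a mean value of at least 1 (6051 higher and 6402 lower), no filter (7118 and 8264), a fold of at least 2 (631 and 653) and the edgeR exact test with an assumed coefficient of variation of 0.2 (196 and 110), which the construction of these rules gives. They moved less with a mean value of at least 50 (2586 and 2656), pseudocounts of 0.1 and 5, and an exact binomial test (two-sided, Benjamini-Hochberg adjusted) of the recovered reads with 1.2-fold, which called 5223 genes (2554 and 2669) as differing between these 2 libraries. Of the genes named by the rule and reported here that were called, the direction reversed in 3: Cox5b (0.0910), Kdm5c (0.13) and Stat5b (0.0008). This happened only when values were centred on windows of neighbouring genes, an alternative chosen after seeing the data. Called genes outside that rule could reverse under it too, as Ctsa did (-0.30 to 0.21). Some genes near 0 that were not called, Il1a and Il1b among them, crossed 0 too. The cause was not tested. Depth limits genes of few reads, for which the limits are wide.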

Other observations

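Of 9 compared genes of alternative activation and repair, 5 were higher in K122R (55.6%) and 2 lower (22.2%), where 26.4% and 28.6% of all compared genes were. In p65 KO, which shares the WT p65 library, 12 of 13 compared members were higher and none lower. Of all genes compared in p65 KO, 19.3% were higher and 19.4% lower. C1qb (13 reads with WT p65 and 3 with K122R) and C1qc (12 and 0), complement genes, were too low to compare in K122R. Spp1, which encodes osteopontin, had 1165 reads with WT p65, 3460 with K122R and 3144 with p65 KO, log2 fold changes of 1.62 and 1.48. Clec7a, the receptor dectin-1 for fungal glucans, had 563, 1214 and 1074 reads (1.16 and 0.98). Of 8 osteoclast-related genes, 5 were higher (62.5%) and 2 lower in K122R, against 26.4% and 28.6% of all compared genes. In p65 KO 6 of the 8 were higher and none lower, against 19.3% and 19.4% of all genes there. Dcstamp, a protein of cell fusion, had 388, 1408 and 698 reads (1.91 and 0.89), while Nfatc1, the transcription factor of osteoclast formation, had 3677, 2023 and 3319 (-0.81 and -0.10). In the p53 target list 7 of 17 were higher (41.2%) and 5 lower (29.4%), the lower share being near the 28.6% of all compared genes. Fas, a death receptor, had 204 reads with WT p65, 523 with K122R and 90 with p65 KO (1.41 and -1.12), and Mdm2, the ligase that degrades p53, had 2294, 4013 and 2232 (0.86 and 0.01).

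Lipid efflux and LXR targets had 5 of 15 higher (33.3%) and 6 lower, against 26.4% and 28.6% of all compared genes, and library totals gave 3 and 7 (46.7%), where 40.5% of all compared genes were lower. Abcg1, a cholesterol exporter, had 840 reads with WT p65 and 1297 with K122R (log2 fold change 0.68), and Abca1, another exporter, had 435 and 316 (-0.40). Cd36, a scavenger receptor, had 7578 reads with WT p65, 5331 with K122R and 11403 with p65 KO (-0.45 and 0.64), and Scd1, a fatty acid desaturase, had 168, 79 and 169 (-1.02 and 0.06). Of 20 NRF2 targets, 7 were higher and 4 lower, against 26.4% and 28.6% of all compared genes, with Srxn1, a sulfiredoxin, at 499 and 776 reads (0.69) and Me1, a malic enzyme, at 267 and 181 (-0.50).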
